A study of Mus musculus with 11 samples.

Results

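Aminoacyl-tRNA synthetases join each amino acid to its transfer RNA, the step that fixes which amino acid a codon stands for. The genes were taken by their mouse symbols from the series' table of raw read counts, which held 37 of them among 27179 genes. Of these, 20 encode enzymes of the cytosol and 17 encode enzymes of mitochondria. All 37 passed the filter on low counts and were tested. The rule used gene symbols and no measured value, and it was set with earlier results of these data known.

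The libraries came from group 2 innate lymphoid cells (ILC2s), tissue lymphocytes that secrete IL-5 and IL-13. They were sorted from large intestines of C57BL/6 mice, described as wild type. The medium of every group, controls included, contained both IL-2 and IL-7, each at 100 ng/ml, and IL-25 or ADM2 was present for 3 h where given. The vehicle group (n = 3) received no IL-25 or ADM2, the ADM2 group (n = 3) 0.4 µg/ml ADM2, the IL-25 group (n = 3) 100 ng/ml IL-25, and the last group (n = 2, its replicates 2 and 3) the same doses of both, named IL-25 plus ADM2. The titles of that last group name IL25, but its treatment label reads IL125, and the titles were followed. ADM2 (adrenomedullin 2) is a peptide hormone related to CGRP, and IL-25 is an epithelial cytokine that activates ILC2s. The labels do not say whether replicates were separate mice, so p-values measure the spread between these libraries, which may be technical. No freshly sorted sample was compared here.

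The libraries held 25809256 to 35445351 counts, and a cytosolic synthetase gene had 1766 to 21601 counts in a library, a mitochondrial one other than Lars2 125 to 2323. All 12 ILC2 markers were detected in every library, with a summed level of 5685 to 26160 CPM (the count of a gene relative to its library's size after TMM scaling). By group the sum was 5685 to 6020 CPM in vehicle, 7494 to 7560 with ADM2, 15290 to 17050 with IL-25 and 23930 to 26160 with both. The markers did not move together. Mean Il5 was 554 CPM in vehicle and 13700 with both, while Il17rb was 216 in vehicle and 111 with IL-25. With ADM2 alone Il2ra went from 1891 to 1021 CPM. NK and ILC1 markers (6 genes) summed to 35.39 to 62.8 CPM, and mast cell markers (5 genes, nearly all Kit, with Mcpt2 at 0 in every library) to 410 to 937. Other markers were higher with IL-25, as most cytosolic synthetases were. ILC3 markers (5 genes, mostly Il22) summed to 206 to 275 CPM in vehicle and 400.5 to 443 with ADM2, and to 1153 to 1332 with IL-25 and 1277 to 1527 with IL-25 plus ADM2. Stroma and endothelium markers (5 genes, mostly Pecam1) summed to 207 to 210.0 CPM in vehicle and 158 to 211 with ADM2, and to 377 to 455 with IL-25 and 344 to 398 with IL-25 plus ADM2. Summed T cell markers (7 genes) reached 7.60 to 13.5 CPM and B cell markers (5 genes) 7.32 to 20.98 CPM. Myeloid markers (6 of 6 detected) summed to 6.18 to 8.71 CPM in vehicle and 14.6 to 19.8 CPM with ADM2, and to 5.41 to 10.2 CPM with IL-25 and 12.8 to 16.9 CPM with IL-25 plus ADM2. Epithelial markers (5 genes, nearly all of the sum being Epcam) moved the other way, from 158 to 188 CPM in vehicle and 143 to 168 CPM with IL-25 down to 80.3 to 89.1 CPM with ADM2 and 65.8 to 86.0 CPM with IL-25 plus ADM2. The part of these cells or of their RNA in the synthetase results was not tested. In bulk RNA, fewer cells of a type and less RNA per cell cannot be told apart.

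Each cell keeps separate sets of synthetases for the cytosol and for mitochondria, and nuclear genes encode both. The glycyl and lysyl enzymes (Gars, Kars) serve both compartments from 1 gene, and the bifunctional Eprs charges both glutamate and proline. Several cytosolic enzymes (Eprs, Iars, Lars, Mars1, Qars, Rars, Kars and Dars, 8 genes) are held in the multi-synthetase complex by the scaffold proteins AIMP1, AIMP2 and EEF1E1 (AIMP3). Most cytosolic synthetase genes are known targets of ATF4, the transcription factor of the integrated stress response, and many are known targets of MYC. Both factors raise amino acid supply and translation in growing lymphocytes.

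The promoters (250 bases before to 50 bases after the start, RefSeq, assembly GRCm38.p6, the mm10 build) were given for 27 of the 37 genes. Both strands were searched for the MYC E-box CACGTG and for the ATF4 element TGATGNAA. Of these 27 genes, 5 held the E-box (18.5%, against 8.09% of 27025 genes with a promoter) and 5 held the ATF4 element (18.5%, against 4.51%). The genes with the ATF4 element were Aars, Gars, Iars, Tars and Yars, all cytosolic, out of 13 cytosolic and 14 mitochondrial genes with a promoter. The 3 genes that held both motifs, Aars, Iars and Tars, are shown, with the E-box and the ATF4 element in capitals and no overlap between them. All 3 rose with IL-25, and with ADM2 Iars was called lower (-0.39 ± 0.11) while Aars (0.23 ± 0.07) and Tars (-0.19 ± 0.09) were not called (log2 fold change ± SE):
Aars (chr8:111033592-111033891, plus strand): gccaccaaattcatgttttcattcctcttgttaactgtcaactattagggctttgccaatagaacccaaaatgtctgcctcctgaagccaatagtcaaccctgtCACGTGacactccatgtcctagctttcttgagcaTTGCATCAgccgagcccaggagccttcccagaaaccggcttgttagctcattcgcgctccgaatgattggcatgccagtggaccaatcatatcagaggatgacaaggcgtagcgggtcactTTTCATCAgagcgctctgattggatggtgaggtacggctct
Iars (chr13:49681880-49682179, plus strand): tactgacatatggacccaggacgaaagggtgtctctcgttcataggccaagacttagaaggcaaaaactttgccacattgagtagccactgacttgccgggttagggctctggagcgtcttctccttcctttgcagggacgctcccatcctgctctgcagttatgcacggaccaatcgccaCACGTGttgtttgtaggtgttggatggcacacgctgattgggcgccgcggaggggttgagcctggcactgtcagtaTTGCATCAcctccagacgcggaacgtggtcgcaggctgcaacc
Tars (chr15:11399609-11399908, minus strand): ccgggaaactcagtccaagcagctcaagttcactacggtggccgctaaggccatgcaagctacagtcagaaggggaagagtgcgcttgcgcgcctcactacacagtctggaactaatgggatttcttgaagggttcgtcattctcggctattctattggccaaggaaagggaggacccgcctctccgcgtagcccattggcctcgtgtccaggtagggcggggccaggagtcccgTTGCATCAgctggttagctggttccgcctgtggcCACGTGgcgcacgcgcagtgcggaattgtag
In Aars the E-box began 146 bases before the start, and ATF4 elements began 112 bases before it and at base 10, with the start as base 1. In Iars the E-box began 69 bases before the start and the ATF4 element at base 8, and in Tars the ATF4 element began 15 bases before the start and the E-box at base 20. The cyclic AMP response element TGACGTCA was found in 0 of the 27 promoters (2.03% of all genes), and its shorter form TGACG, which the full element contains, in 10 (37.0%, against 23.0%). These matches describe letters and not bound sites.

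Per kilobase of coding sequence, the cytosolic genes stood well above the mitochondrial ones. The median level in vehicle was 80.2 CPM per kilobase for cytosolic genes (range 47.7 to 222) and 10.8 for mitochondrial genes (4.03 to 203). Every cytosolic gene was above every mitochondrial gene except Lars2, in the order of vehicle means. The ratio of the 2 medians was 7.45 in vehicle, 8.22 with ADM2, 10.0 with IL-25 and 10.8 with IL-25 plus ADM2. With exon length in place of coding length the ratios were 12.1, 9.23, 12.3 and 10.6 in the same order, so the order of the groups depends on the length used.

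The highest gene was Nars, which charges asparagine, at 222 ± 17.6 CPM per kilobase (SD, n = 3) in vehicle. Lars2, the mitochondrial leucyl enzyme, followed at 203 ± 54.5, and its spread covered the gap to Nars. Sars, the seryl enzyme, came after them at 149.5 ± 14.2 (SD, n = 3). At the other end stood Ears2 (glutamate), Pars2 (proline) and Aars2 (alanine) of mitochondria, at 8.42 ± 0.914, 5.47 ± 1.03 and 4.03 ± 0.422 CPM per kilobase (SD, n = 3). Nars ranked first in every group but ADM2, where Lars2 did. Lars2 was high and low in the same libraries as an abundant entry without a symbol, as given below. Whether reads are shared between them was not tested, so the level and ranks of Lars2 carry that limit. Per kilobase of exon Nars ranked first in ADM2 too, and in vehicle Gars, Vars, Kars and Rars stood above Lars2 and Sars.

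**Figure D1:**
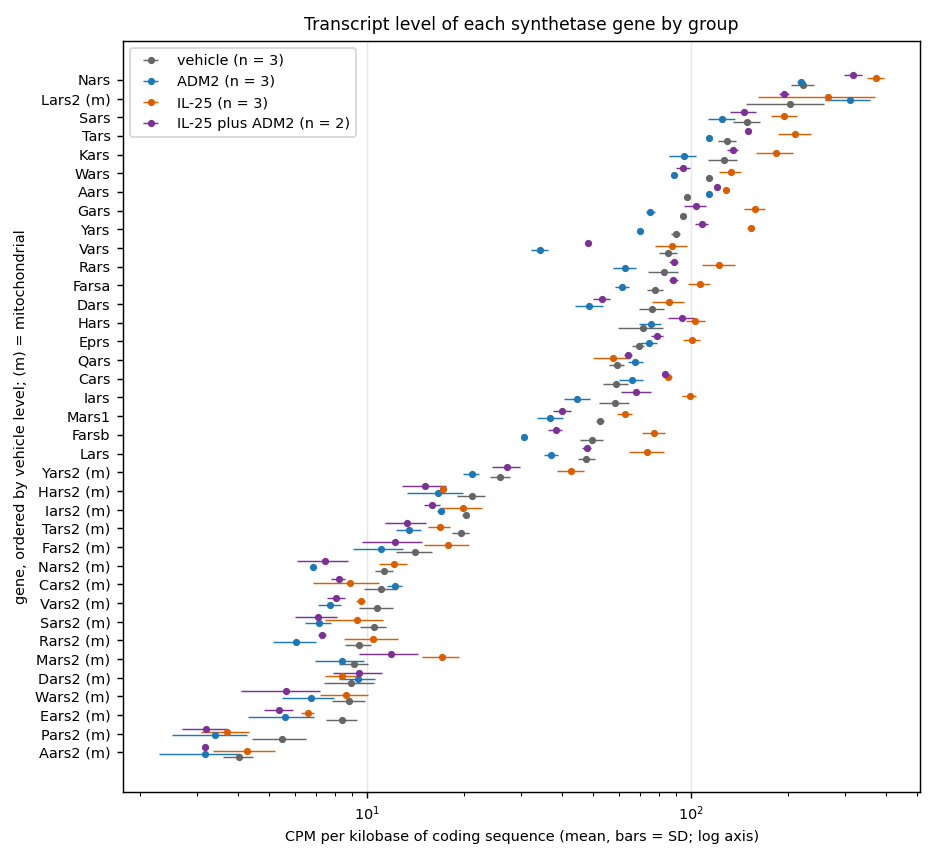
Level of each synthetase gene in CPM per kilobase of coding sequence on a log axis, as mean and SD of each group, ordered by the vehicle mean, with mitochondrial genes marked (m). Cytosolic genes fill the upper part and, apart from Lars2, mitochondrial genes the lower, with vehicle medians of 80.2 and 10.8.

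Sums over genes show the same groups side by side. In vehicle the 20 cytosolic genes summed to 3901 to 4101 CPM per library, and ADM2 libraries lay below that at 3354 to 3418 CPM. IL-25 libraries reached 5471 to 5800 CPM, above all others, and IL-25 plus ADM2 libraries lay between at 4226 and 4328 CPM. The mitochondrial genes without Lars2 followed another order: 365 to 378 CPM in vehicle and 369 to 411 with IL-25 overlapped, and both ADM2 groups lay below them, at 284 to 300.1 CPM without and 291 and 304 CPM with IL-25. The place of the groups against vehicle depends on the TMM factors, which were 1.086 to 1.124 in vehicle and 0.9327 and 0.9039 with IL-25 plus ADM2. Without these factors, an alternative chosen after seeing the data, the cytosolic sum was 4383 to 4451 CPM in vehicle and lower with IL-25 plus ADM2, at 3911 and 3941 CPM. On that scale it was 3373 to 3466 CPM with ADM2 and 5182 to 5448 CPM with IL-25, on the same sides of vehicle as before. The mitochondrial sum without TMM factors was 409.9 to 411 CPM in vehicle and lower with IL-25, at 349.9 to 387 CPM.

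**Figure D2:**
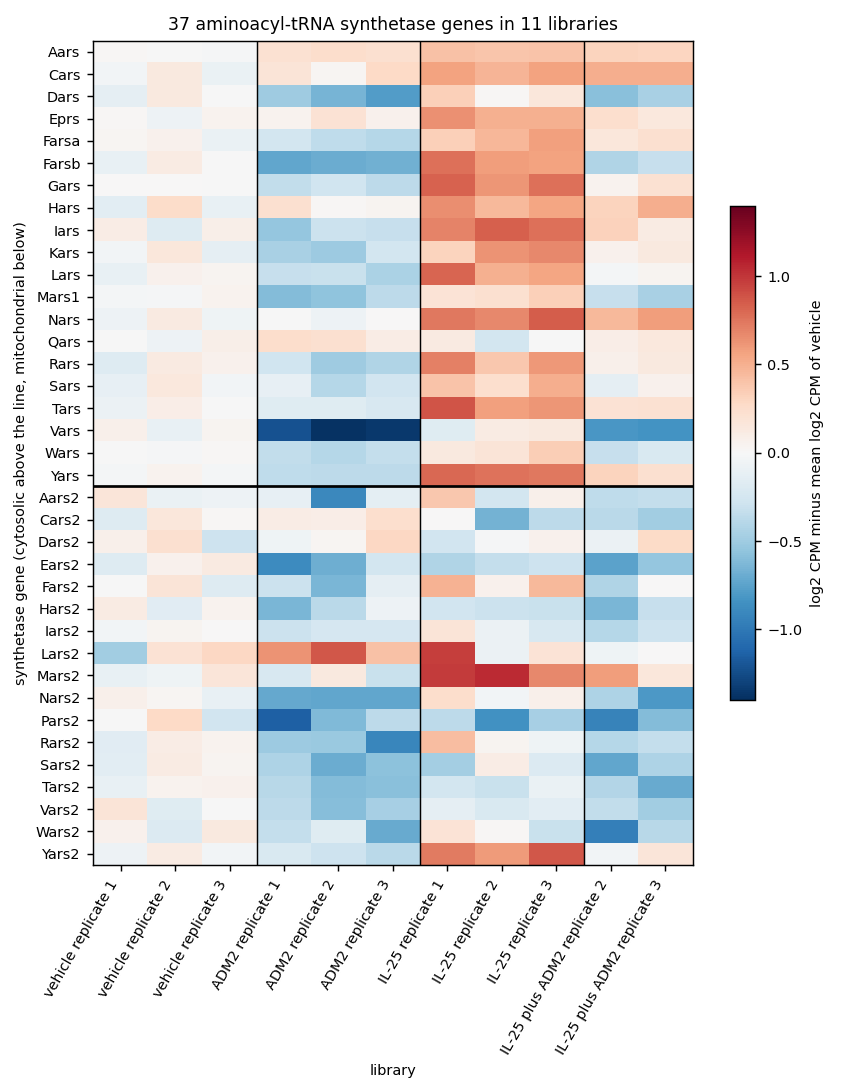
Log2 CPM of each synthetase gene (rows) in each library (columns) minus the mean of the vehicle libraries, red for higher and blue for lower, with cytosolic genes above the line. The IL-25 libraries are red for most cytosolic genes and few mitochondrial ones, and Vars is the darkest blue gene in the ADM2 libraries.

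ADM2 alone was compared with vehicle to ask what the peptide changed without IL-25. Synthetase transcripts fell: 17 of 37 genes were lower at an adjusted p under 0.05 in edgeR's quasi-likelihood test, and 0 were higher (DESeq2 and limma voom each called 1 higher, Aars). Of all 15028 genes tested, 14.8% were called in this comparison, with 7.43% lower and 7.39% higher. At an unadjusted p under 0.05, 1 cytosolic gene (Aars) and 1 mitochondrial gene (Lars2) were higher. The lower genes were 12 of the 20 cytosolic (Vars, Farsb, Dars, Mars1, Kars, Rars, Iars, Lars, Yars, Wars, Farsa and Gars) and 5 of the 17 mitochondrial (Nars2, Rars2, Sars2, Tars2 and Vars2). The median log2 fold change was -0.35 in each compartment, against -0.01 over all genes.

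Valyl-tRNA synthetase had the largest fall. Vars (Entrez 22321, 17:35000907-35016329, mm10), the only cytosolic enzyme that charges valine, was at 343, 303 and 336 CPM in vehicle, 140.3, 126 and 128 with ADM2, 291, 355 and 359.7 with IL-25, and 186 and 183 with IL-25 plus ADM2. Every library with ADM2 lay below every library without it, and the 2 ADM2 groups did not overlap. The log2 fold change was -1.32 ± 0.10 (adjusted p = 4.06e-07) for ADM2 alone.

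Farsb, the beta subunit of the phenylalanyl enzyme, came next among cytosolic genes. It stood at 81.1, 95.04 and 86.9 CPM in vehicle, 53.01, 54.2 and 54.9 with ADM2, 149, 131 and 129 with IL-25, and 65.3 and 70.04 with IL-25 plus ADM2. The log2 fold change with ADM2 was -0.70 ± 0.10 (adjusted p = 0.00014). Its partner subunit Farsa changed by -0.34 ± 0.09 (adjusted p = 0.0237), a call that was lost without ADM2 replicate 2 (adjusted p = 0.0715) or replicate 3 (0.0641).

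Dars, the aspartyl enzyme of the multi-synthetase complex, was at 105, 125 and 114 CPM in vehicle, 80.8, 72.8 and 66.2 with ADM2, 144, 115 and 127 with IL-25, and 76.3 and 83.4 with IL-25 plus ADM2. All ADM2 libraries lay below all vehicle libraries, with a log2 fold change of -0.64 ± 0.11 (adjusted p = 0.000964). Mars1, the methionyl enzyme of the same complex, was at 141, 142 and 148 CPM in vehicle, 94.1, 97.03 and 111 with ADM2, 163, 168 and 181 with IL-25, and 114 and 104 with IL-25 plus ADM2. It fell with ADM2 by 0.51 ± 0.09 on the log2 scale (adjusted p = 0.00143). An exon of Mars1 overlaps Ddit3 on the other strand, and whether counting used strand is not given in the sources used here. Exons of Farsb, Yars and Nars2, among other members, also overlap a gene on the other strand.

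In all, 6 of the 8 genes of the multi-synthetase complex fell with ADM2, and 6 of the 12 cytosolic genes outside it. Within the complex, Eprs and Qars were the genes not called. Eprs was at 318, 298 and 324 CPM in vehicle, 323, 361 and 326 with ADM2, 487, 442 and 442 with IL-25, and 369 and 346 with IL-25 plus ADM2. Its log2 fold change for ADM2 alone was 0.10 ± 0.08 (adjusted p = 0.504), with overlapping groups. Qars, the glutaminyl enzyme, was at 137, 130.4 and 145 CPM in vehicle, 163, 161 and 148 with ADM2, 149.6, 115 and 137 with IL-25, and 146 and 152 with IL-25 plus ADM2. Its ADM2 libraries lay above the vehicle ones, and the log2 fold change of 0.19 ± 0.10 (adjusted p = 0.262) did not pass the threshold.

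Wars, the tryptophanyl enzyme, which interferon also raises, was at 164, 163 and 167 CPM in vehicle, 129, 125 and 130.2 with ADM2, 181, 186 and 208 with IL-25, and 132 and 142 with IL-25 plus ADM2. Its ADM2 libraries lay close together and below all others without ADM2, at a log2 fold change of -0.36 ± 0.09 (adjusted p = 0.00979). Yars, the tyrosyl enzyme, was at 149, 158 and 149.9 CPM in vehicle, 119, 118 and 118 with ADM2, 266, 258 and 254 with IL-25, and 189 and 178 with IL-25 plus ADM2. It changed by -0.36 ± 0.08 (adjusted p = 0.00588) on the log2 scale with ADM2, and its IL-25 libraries were the highest. Kars stood at 229.5, 264 and 216 CPM in vehicle, 172, 165 and 197 with ADM2, 292, 364 and 376 with IL-25, and 246 and 259.6 with IL-25 plus ADM2. Gars stood at 208, 207 and 206 CPM in vehicle, 163, 170.3 and 160.2 with ADM2, 366, 317 and 352 with IL-25, and 214 and 239 with IL-25 plus ADM2. With ADM2 they changed by -0.41 ± 0.11 (adjusted p = 0.0234) and -0.33 ± 0.09 (adjusted p = 0.0172) on the log2 scale, and in both genes the ADM2 libraries were the lowest.

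Of the genes that did not pass the test with ADM2, Aars was the nearest on the higher side, at 0.23 ± 0.07 (adjusted p = 0.0523). It passed with DESeq2 (adjusted p = 0.00587), limma voom (0.0425), upper-quartile factors (0.0413), a minimum count of 30 (0.037) or without IL-25 replicate 1 (0.0304). Cars, Hars, Nars, Sars and Tars were the other cytosolic genes not called outside the complex, with log2 fold changes from -0.26 for Sars to 0.16 for Cars.

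Mitochondrial genes that fell were led by Nars2, the asparaginyl enzyme. Nars2 was at 17.02, 16.5 and 15.03 CPM in vehicle, 9.85, 9.8 and 9.75 with ADM2, 19.2, 15.7 and 17.1 with IL-25, and 12.01 and 9.29 with IL-25 plus ADM2. With ADM2 its 3 libraries were nearly equal and below vehicle, at -0.72 ± 0.15 (adjusted p = 0.0045) on the log2 scale. Rars2, the arginyl enzyme, was at 14.7, 17.5 and 16.9 CPM in vehicle, 11.5, 11.3 and 8.65 with ADM2, 22.1, 16.8 and 15.7 with IL-25, and 12.3 and 12.9 with IL-25 plus ADM2, a change of -0.64 ± 0.17 (adjusted p = 0.0196). Rars2 did not pass without vehicle replicate 3 (adjusted p = 0.0534) and did not pass without ADM2 replicate 3 (0.0743). Tars2 (threonine), Vars2 (valine) and Sars2 (serine) changed by -0.52 ± 0.12 (adjusted p = 0.0071), -0.48 ± 0.12 (adjusted p = 0.0137) and -0.57 ± 0.18 (adjusted p = 0.0428).

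Ears2 was at 11.6, 13.7 and 14.3 CPM in vehicle, 7.14, 8.16 and 10.99 with ADM2, 9.81, 10.4 and 10.7 with IL-25, and 7.83 and 9.02 with IL-25 plus ADM2, and its log2 fold change of -0.59 ± 0.19 (adjusted p = 0.0532) with ADM2 missed the threshold. It passed with DESeq2 (adjusted p = 0.0234), voom (0.0312), a minimum count of 30 (0.0429), without vehicle replicate 1 (0.0473) or without ADM2 replicate 3 (0.0161). Hars2, the histidyl enzyme, passed without ADM2 replicate 3 only (0.0325). At the low end, Pars2 was at 8.25, 10.03 and 6.88 CPM in vehicle, 3.75, 5.4 and 6.44 with ADM2, 6.41, 4.6 and 6.02 with IL-25, and 4.35 and 5.44 with IL-25 plus ADM2. Aars2 was at 13.3, 11.04 and 11.2 CPM in vehicle, 10.9, 6.34 and 10.7 with ADM2, 15.4, 9.91 and 12.4 with IL-25, and 9.25 and 9.36 with IL-25 plus ADM2. Their ADM2 libraries lay just below the vehicle ones, and their changes of -0.69 ± 0.26 (adjusted p = 0.1) and -0.34 ± 0.23 (adjusted p = 0.38) with ADM2 did not pass.

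Of the 17 calls, 8 (Dars, Farsb, Mars1, Vars, Wars, Yars, Nars2 and Tars2) held under every alternative setting and with each library left out. The other 9 were lost in at least 1 of these, with an adjusted p of at most 0.137 (Sars2 without ADM2 replicate 2). Besides Farsa and Rars2, Gars was lost without ADM2 replicate 1 (adjusted p = 0.0582). Iars was lost without vehicle replicate 1 (0.0584) or 3 (0.058) or ADM2 replicate 1 (0.0993), and Kars without vehicle replicate 2 (0.0552) or ADM2 replicate 1 (0.0846) or 2 (0.096). Lars and Rars were lost without vehicle replicate 3 (0.058 and 0.0565) or ADM2 replicate 3 (0.0736 and 0.0547), Lars also without ADM2 replicate 1 (0.0542) and Rars without ADM2 replicate 2 (0.0917). Sars2 was lost without vehicle replicate 2 (0.0957) or 3 (0.092), without any of the ADM2 libraries (0.0631, 0.137 and 0.0848) or without IL-25 replicate 3 (0.0533), and without the filter on low counts (0.0504). The replicate block removed the calls of Farsa, Lars and Sars2 (adjusted p = 0.0599, 0.0507 and 0.0784). Vars2 needed vehicle replicate 1 (0.0523 without it) and ADM2 replicate 2 (0.064 without it). The count of mitochondrial genes went from 5 to 3 without vehicle replicate 3 or without ADM2 replicate 2.

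IL-25 was compared with vehicle to ask what the alarmin changed in the same culture. Most cytosolic synthetases rose: 15 of 20 cytosolic genes and 2 of 17 mitochondrial genes were higher, and 0 of the 37 were lower in edgeR's test, in DESeq2 or in voom. Over all genes, 23.3% were called, with 13.0% of genes higher and 10.4% lower. That balance turned with upper-quartile factors, from 1947 genes higher and 1556 lower to 1562 higher and 1937 lower, while the synthetase counts stayed at 15 and 2. The median log2 fold change was 0.54 for cytosolic genes and -0.03 for mitochondrial genes, against 0.00 over all genes. The median SE was 0.10 for cytosolic and 0.17 for mitochondrial genes, which had fewer counts, and a difference between the compartments was not tested. At an unadjusted p under 0.05, 0 cytosolic genes and 1 mitochondrial gene (Pars2) were lower.

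The largest cytosolic increases were those of Yars, Iars, Nars and Gars. Yars rose by 0.77 ± 0.08 (adjusted p = 7.95e-06) on the log2 scale. Iars, the isoleucyl enzyme, was at 237, 194 and 233 CPM in vehicle, 152, 179 and 177 with ADM2, 356, 394 and 377 with IL-25, and 277 and 238 with IL-25 plus ADM2, with a change of 0.76 ± 0.11 (adjusted p = 9.33e-05) for IL-25. All IL-25 libraries lay above all others. Nars was at 355, 406 and 356 CPM in vehicle, 371, 355 and 374 with ADM2, 618, 592 and 667 with IL-25, and 508 and 557 with IL-25 plus ADM2. It rose with IL-25 by 0.75 ± 0.09 (adjusted p = 2.12e-05), and Gars by 0.74 ± 0.09 (adjusted p = 2.39e-05). All 5 genes with the ATF4 element in the promoter rose with IL-25, as did 10 of the 13 cytosolic genes with a promoter given. All 4 cytosolic genes with the E-box rose (Aars, Farsb, Iars and Tars), and the mitochondrial Ears2, which also holds it, did not. Of the 5 cytosolic genes with TGACG, 4 rose, and of the 5 mitochondrial ones 0 did. With ADM2, 3 of the 5 genes with the ATF4 element, 2 of the 4 cytosolic genes with the E-box and 3 of the 5 cytosolic genes with TGACG were lower, against 8 of the 13.

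The 5 cytosolic genes not called with IL-25 were Vars (0.03 ± 0.10), Qars (-0.04 ± 0.10), Dars (0.17 ± 0.11), Wars (0.22 ± 0.09) and Mars1 (0.25 ± 0.09), as log2 fold change ± SE. Vars had IL-25 libraries on both sides of the vehicle range. Wars and Mars1 passed with DESeq2 (adjusted p = 0.0413 and 0.0415), and Wars without IL-25 replicate 1 (0.0492). In the multi-synthetase complex 5 of 8 genes rose, and outside it 10 of 12.

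Among mitochondrial genes, Mars2 and Yars2 rose with IL-25. Mars2, the methionyl enzyme, was at 14.9, 15.3 and 17.96 CPM in vehicle, 13.7, 17.6 and 12.9 with ADM2, 31.5, 33.04 and 25.4 with IL-25, and 24.1 and 17.9 with IL-25 plus ADM2, at a log2 fold change of 0.90 ± 0.17 (adjusted p = 0.00105). Yars2, the tyrosyl enzyme, was at 34.8, 39.5 and 35.5 CPM in vehicle, 31.5, 29.9 and 28.1 with ADM2, 60.4, 55.02 and 66.5 with IL-25, and 35.6 and 41.1 with IL-25 plus ADM2, a change of 0.73 ± 0.11 (adjusted p = 0.000248). In both genes all IL-25 libraries lay above all vehicle libraries. Nars2 changed by 0.10 ± 0.15 (adjusted p = 0.726), Rars2 by 0.15 ± 0.17 (adjusted p = 0.604) and Ears2 by -0.35 ± 0.19 (adjusted p = 0.218), none past the threshold. Cars2, the cysteinyl enzyme, was lower only when IL-25 replicate 1 was left out (adjusted p = 0.0356).

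The cytosolic and mitochondrial enzymes for the same amino acid can be set side by side. For tyrosine both Yars and Yars2 rose with IL-25. For asparagine Nars rose by 0.75 ± 0.09 while Nars2 stood at 0.10 ± 0.15, and for methionine Mars2 rose by 0.90 ± 0.17 while Mars1 stood at 0.25 ± 0.09 (log2 fold change ± SE). The differences between cytosolic and mitochondrial partners were not tested.

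Leaving out libraries or changing the settings removed 1 of the 17 calls with IL-25. Sars was at 222, 266 and 234 CPM in vehicle, 221, 182 and 199.6 with ADM2, 317, 282 and 341 with IL-25, and 219.5 and 249.7 with IL-25 plus ADM2, a change of 0.38 ± 0.11 (adjusted p = 0.0177). Its call was lost without vehicle replicate 1 (adjusted p = 0.124), vehicle replicate 3 (0.0985) or IL-25 replicate 3 (0.0849).

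**Figure D3:**
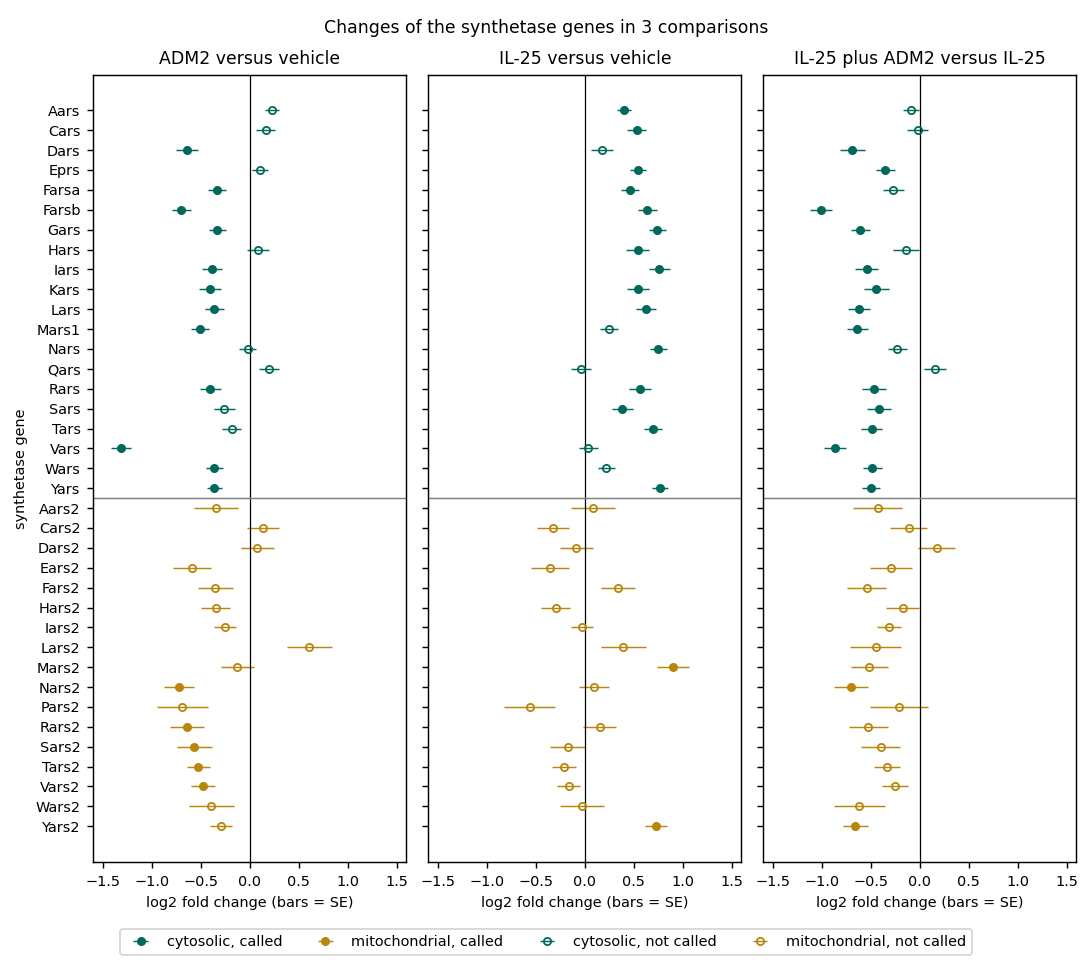
Log2 fold change of each synthetase gene with its SE in 3 comparisons, cytosolic genes in green above the line and mitochondrial genes in gold, filled where the adjusted p was under 0.05. With ADM2 17 genes were lower, with IL-25 17 were higher, 15 of them cytosolic, and with ADM2 on top of IL-25 16 were lower.

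ADM2 on top of IL-25 was compared with IL-25 alone to ask what the peptide changed in activated cells. Synthetase transcripts were lower again: 16 of 37 were called lower and 0 higher (0 also in DESeq2 and voom), 14 of them cytosolic and 2 mitochondrial (Yars2 and Nars2). Over all genes, 14.6% were called, with 8.1% of genes lower and 6.53% higher (1217 and 981 genes, which turned to 914 and 1233 with upper-quartile factors, where 11 cytosolic and 2 mitochondrial synthetases were lower), and at an unadjusted p under 0.05 there were 0 synthetases on the higher side. The median log2 fold change was -0.48 for cytosolic and -0.40 for mitochondrial genes, against -0.01 over all genes. In the complex 7 of 8 genes fell, and 7 of the 12 outside it. The IL-25 libraries serve as control here and as the treated group in the comparison with vehicle, so the values of these 2 comparisons are not independent.

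Farsb fell by 1.01 ± 0.11 on the log2 scale (adjusted p = 2.41e-05) with ADM2 on top of IL-25. Farsa changed by -0.27 ± 0.10 (adjusted p = 0.104), which passed the threshold without IL-25 replicate 1 only (adjusted p = 0.0466). Vars changed by -0.86 ± 0.11 (adjusted p = 0.00011) and Dars by -0.69 ± 0.13 (adjusted p = 0.00177). Mars1, Lars (leucine) and Gars followed, with -0.64 ± 0.11, -0.62 ± 0.11 and -0.61 ± 0.10 (log2 fold change ± SE). Wars changed by -0.49 ± 0.10 (adjusted p = 0.00331) and Yars by -0.50 ± 0.09 (adjusted p = 0.00146).

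The 6 cytosolic genes not called were Aars, Cars, Hars, Nars, Farsa and Qars, at log2 fold changes from -0.27 for Farsa to 0.16 for Qars. Aars, Cars, Hars, Nars and Qars were also not called with ADM2 alone. Eprs differed by -0.35 ± 0.10 (adjusted p = 0.0208) with IL-25 present. That call was lost without ADM2 replicate 3 (adjusted p = 0.0513), IL-25 plus ADM2 replicate 2 (0.0747) or 3 (0.188), under upper-quartile factors (0.070) and when only the 2 groups were fitted (0.093).

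Yars2 fell with ADM2 in IL-25-treated cells by 0.66 ± 0.13 on the log2 scale (adjusted p = 0.00243). Its IL-25 plus ADM2 libraries lay below all 3 IL-25 libraries and near the vehicle libraries. Nars2 changed by -0.70 ± 0.18 (adjusted p = 0.0138), a call lost when IL-25 plus ADM2 replicate 3 was left out (adjusted p = 0.185) and when only the 2 groups were fitted (0.0672). Mars2 changed by -0.52 ± 0.19 (adjusted p = 0.0826) and Rars2 by -0.53 ± 0.20 (adjusted p = 0.0902), both short of the threshold. Fars2, the phenylalanyl enzyme, passed without IL-25 replicate 2 only (adjusted p = 0.0447).

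With 2 libraries in the IL-25 plus ADM2 group, counts rest on each of them. The cytosolic count went from 14 to 8 without replicate 2 and to 9 without replicate 3 of that group, where the remaining library was assumed to vary like the other groups. The calls of Dars, Farsb, Gars, Lars, Mars1, Vars, Yars and Yars2 (8 of 16) held under every alternative. Those of Iars (0.0998 without IL-25 plus ADM2 replicate 3), Tars (0.0506 without replicate 2), Wars (0.0562 without replicate 2) and Rars, Kars and Sars did not, with adjusted p of up to 0.251 (Sars without replicate 2). Rars, Kars and Sars were each lost without either of these 2 libraries. They were also lost without IL-25 replicate 3 (0.0561, 0.106 and 0.111), Rars and Sars without IL-25 replicate 1 (0.0513 and 0.0526), Kars without IL-25 replicate 2 (0.0781) or vehicle replicate 1 (0.0525), and Sars without vehicle replicate 3 (0.0608) or ADM2 replicate 3 (0.0624). Fitting only the 2 groups removed the calls of Rars, Kars and Sars (0.0563, 0.0716 and 0.0766). Upper-quartile factors removed Kars and Sars (0.0559 and 0.0682), and the replicate block Rars and Sars (0.0607 and 0.0753). Eprs, as given above, was also lost in each of these settings.

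**Figure D4:**
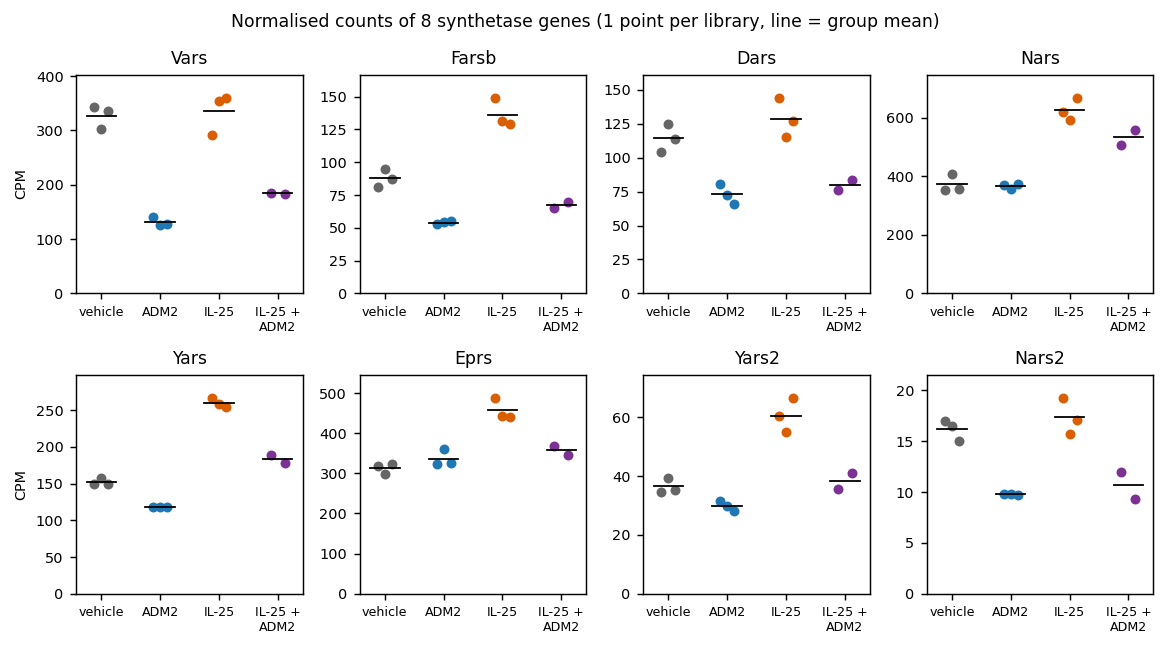
Normalised counts (CPM, axes from 0) of 8 synthetase genes in each library, with the group mean as a line. Vars, Farsb, Dars and Nars2 have both ADM2 groups below vehicle, Nars has them at vehicle level and above it, and Yars2 has its IL-25 libraries above all others.

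IL-25 plus ADM2 was then compared with ADM2 alone, the effect of IL-25 in the presence of the peptide. Its libraries also serve in the comparisons above, so the values are not independent of them. Of the cytosolic genes 11 of 20 rose (Yars, Nars, Iars, Farsa, Kars, Rars, Vars, Gars, Tars, Lars and Cars), and 0 of 37 genes were lower in edgeR's test. Of all genes, 10.8% were called, with 6.17% of genes higher and 4.68% lower. The median log2 fold change was 0.35 for cytosolic and -0.01 for mitochondrial genes. None of the 17 mitochondrial genes was called in edgeR's test (4 at an unadjusted p under 0.05, namely Cars2, Lars2, Mars2 and Yars2), 2 were called by DESeq2 (Yars2 higher and Cars2 lower), and 0 by voom.

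Vars changed by 0.49 ± 0.11 (adjusted p = 0.00899) between these groups, whereas for IL-25 without ADM2 it stood at 0.03 ± 0.10. Its call was lost without IL-25 plus ADM2 replicate 2 (adjusted p = 0.0626) or 3 (0.0635). Nars (0.54 ± 0.10, adjusted p = 0.00183) and Yars (0.63 ± 0.09, adjusted p = 0.000295) kept their calls under every alternative. The other 9 calls were lost in at least 1 of them, with adjusted p of up to 0.27. The count of 11 fell to 7 without ADM2 replicate 1, 6 without ADM2 replicate 2, and, in the group with both agents, 4 without replicate 2 and 3 without replicate 3.

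Against vehicle, cells with both agents held a mixture. Higher were Nars, Cars, Hars, Yars and Aars (5 genes), and lower were Vars, Farsb, Dars, Mars1, Vars2, Tars2, Nars2 and Ears2 (8 genes). Over all genes, 20.2% were called, with 10.6% of genes higher and 9.64% lower. As given above, the summed cytosolic level of this group lay above vehicle with TMM factors and below it without them. Mean CPM per coding kilobase without these factors was 99.7 in vehicle and 99.4 with both agents for Yars, and 107.9 and 110.6 for Aars. On that scale Nars (245.9 and 291.4), Cars (65.2 and 76.8) and Hars (78.7 and 86.2) were still higher with both agents. Calls without the factors were not tested. Nars changed by 0.52 ± 0.10 (adjusted p = 0.00132) and Vars by -0.83 ± 0.11 (adjusted p = 9.63e-05), at the 2 ends. Farsb, Dars and Mars1 changed by -0.37 ± 0.11, -0.52 ± 0.13 and -0.39 ± 0.11 (± SE).

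In this comparison 3 calls (Cars, Nars and Vars) held under every alternative, and the others reached adjusted p of up to 0.298. The cytosolic count of 9 fell to 4 without vehicle replicate 3, IL-25 plus ADM2 replicate 2 or its replicate 3. The mitochondrial count of 4 fell to 1 without vehicle replicate 1, to 2 without vehicle replicate 3, IL-25 replicate 3 or IL-25 plus ADM2 replicate 2, and to 0 without IL-25 plus ADM2 replicate 3.

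Whether the ADM2 effect differed between cells with and without IL-25 was tested as a difference of log2 fold changes. No synthetase was called (0 of 37, also in DESeq2 and voom), where edgeR called 5 of 15028 genes (0.0333%, with 0.0133% higher and 0.02% lower). An unadjusted p under 0.05 was reached by 7 of the 37 (Aars, Eprs, Farsb, Tars, Vars, Lars2 and Yars2). The share of all genes at that unadjusted threshold is not given here, so these 7 cannot be read as an excess. The smallest p-values among cytosolic genes were those of Eprs, at a difference of -0.46 ± 0.13 (adjusted p = 0.525), and Vars, at 0.45 ± 0.15 (adjusted p = 0.598). For Eprs this is a value of 0.10 ± 0.08 without IL-25 and -0.35 ± 0.10 with it, and for Vars -1.32 ± 0.10 and -0.86 ± 0.11. The median SE of this difference was 0.14 for cytosolic and 0.25 for mitochondrial genes. A p that misses the threshold does not show that the ADM2 effect was equal in both settings.

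Lars2 stood apart from the other mitochondrial genes in level and in spread. It was at 380.3, 615 and 652 CPM in vehicle, 825, 977 and 710.0 with ADM2, 1041, 506 and 612 with IL-25, and 514 and 538 with IL-25 plus ADM2. The vehicle, ADM2 and IL-25 groups each spread widely, and IL-25 replicate 1 was the highest library of all. In ADM2 against vehicle Lars2 was at 0.61 ± 0.23 (adjusted p = 0.0968), and it passed without IL-25 replicate 1 (adjusted p = 0.0243), without the filter on low counts (0.00846) or when only the 2 groups were fitted (0.0338). In the difference of the ADM2 effect it was at -1.06 ± 0.35 (adjusted p = 0.6), and at an adjusted p of 0.0493 without the filter.

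The most abundant ID without a symbol in the gene table used here, Entrez 100861531, was set beside Lars2 because the same libraries were high and low. It was at 3716, 7562 and 8122 CPM in vehicle, 11090, 13530 and 8449 with ADM2, 15040, 6358 and 7919 with IL-25, and 5924 and 6961 with IL-25 plus ADM2. In each library Lars2 came to 6.93% to 10.2% of that level. The ID was called in none of the 6 comparisons, with adjusted p from 0.1 to 0.995. Whether reads are shared between the 2 entries was not tested.

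**Figure D5:**
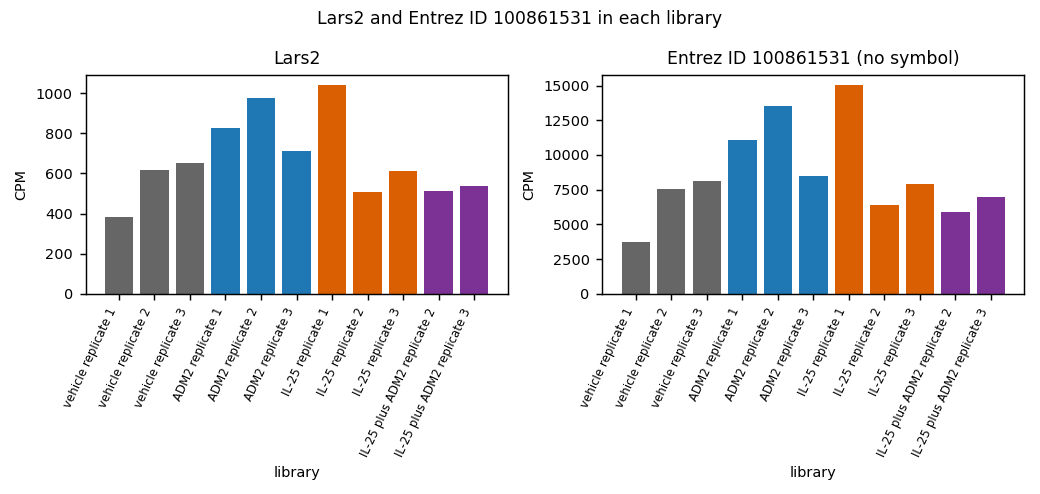
Normalised counts (CPM, bars from 0) of Lars2 on the left and of Entrez ID 100861531 on the right, by library and coloured by group. IL-25 replicate 1 is the highest bar and vehicle replicate 1 the lowest in both.

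Genes that hold or supply the synthetases were listed beside them. Of the 3 scaffold genes of the multi-synthetase complex, Aimp2 had a log2 fold change of -0.67 ± 0.12 (adjusted p = 0.00148) with ADM2, 0.62 ± 0.12 (adjusted p = 0.00163) with IL-25 and -0.77 ± 0.14 (adjusted p = 0.00144) for ADM2 on top of IL-25. Eef1e1 rose the most of the 3 with IL-25, by 1.80 ± 0.13 (adjusted p = 2.07e-07), from 39.8 ± 5.16 CPM in vehicle to 139 ± 13.4 (SD, n = 3 each), with -0.53 ± 0.14 (adjusted p = 0.0168) for ADM2 on top of it. Aimp1 was called in none of these 3 comparisons.

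Of 13 other genes of tRNA charging and proofreading, 0 were called with ADM2 in edgeR's test, against 14.8% of all genes. Their median log2 fold change of -0.36 was nevertheless near the -0.35 of the 37 synthetases, with -0.01 over all genes. DESeq2 called 1 of the 13 and voom 0, and edgeR gave 3 an unadjusted p under 0.05. The smallest adjusted p was that of Gatc, a subunit of the mitochondrial amidotransferase that makes glutaminyl-tRNA (-0.58 ± 0.19, adjusted p = 0.052). With IL-25, Ptrh2, a peptidyl-tRNA hydrolase, rose (0.53 ± 0.17, adjusted p = 0.0336), and Aarsd1, an alanyl-tRNA editing protein, and Pstk, the kinase of the selenocysteine tRNA, fell (-0.54 ± 0.15 and -1.04 ± 0.33). For ADM2 on top of IL-25 the median of the 13 was -0.47. There edgeR called 1 lower (Ptrh2) and 0 higher, against 8.1% and 6.53% of all genes. Of the 6 tested genes listed for tRNA delivery, which include exchange factors, 5 rose with IL-25, against 13.0% of all genes. Among the 5 were the genes of the factors that bring charged tRNA to the ribosome. These were Tufm in mitochondria (0.51 ± 0.11, adjusted p = 0.00292) and Eef1a1 in the cytosol (0.38 ± 0.11, adjusted p = 0.018). With ADM2 edgeR called only Tsfm, the exchange factor of Tufm (-0.45 ± 0.14, adjusted p = 0.0439). That is 1 of the 6, against 14.8% of all genes, and DESeq2 called 2 of the 6 and voom 0.

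Non-synthetase genes of the integrated stress response were called in both directions with ADM2 and in 1 direction with IL-25. Of 32 tested, 6 were higher and 8 lower with ADM2, 18 higher and 0 lower with IL-25, and 4 higher and 11 lower for ADM2 on top of IL-25, with medians of 0.09, 0.54 and -0.26. Among all genes tested, 7.39% were higher and 7.43% lower with ADM2, and 13.0% and 10.4% with IL-25. For ADM2 on top of IL-25 these shares were 6.53% and 8.1%. With ADM2, Ppp1r15a (GADD34, which restores translation) rose by 0.99 ± 0.12 (adjusted p = 4.94e-05). Shmt2, a mitochondrial serine enzyme, and Slc7a5, the transporter of large neutral amino acids, fell, with -0.93 ± 0.11 (adjusted p = 3.36e-05) and -0.73 ± 0.09 (adjusted p = 7.88e-05). With IL-25 the smallest p-values were those of Mthfd2, Slc7a5, Psat1 and Asns, the asparagine synthetase, at 1.26 ± 0.09, 0.99 ± 0.10, 0.88 ± 0.10 and 1.07 ± 0.14. For ADM2 on top of IL-25, Slc7a5 and Psat1, a serine synthesis enzyme, changed by -0.87 ± 0.11 and -0.83 ± 0.11, and Ppp1r15a by 0.95 ± 0.13 (log2 fold change ± SE). Atf4 itself was at 0.38 ± 0.09 (adjusted p = 0.0099) with ADM2, 0.60 ± 0.09 (adjusted p = 0.000196) with IL-25 and 0.12 ± 0.10 (adjusted p = 0.519) for ADM2 on top of IL-25.

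In the list of 9 MYC network genes, Myc fell with ADM2 (-0.46 ± 0.09, adjusted p = 0.00187), rose with IL-25 (1.44 ± 0.09, adjusted p = 6.64e-08) and was lower again for ADM2 on top of IL-25 (-0.45 ± 0.10, adjusted p = 0.00596). Its level was 261 ± 4.80 CPM in vehicle, 189.5 ± 2.17 with ADM2 and 707 ± 77.2 with IL-25 (SD, n = 3 each). Mycn, a MYC family member, rose in all 3 comparisons (1.77 ± 0.12, 1.66 ± 0.12 and 1.59 ± 0.12). Mxi1 and Mxd1, which compete with MYC for its partner MAX, rose with ADM2 (1.15 ± 0.08 and 1.16 ± 0.13), and Tfap4, a transcription factor that MYC is known to raise, fell (-2.32 ± 0.20). For ADM2 on top of IL-25, Mxi1 and Mxd1 were again called higher and Tfap4 lower. Mxi1 was also called higher with IL-25 alone, where Mxd1 and Tfap4 were not called. In all, 3 of the 9 were higher and 2 lower with ADM2, 4 higher and 1 lower with IL-25, and 3 higher and 2 lower for ADM2 on top of IL-25. Among all genes tested, 14.8%, 23.3% and 14.6% were called in these comparisons, in the same order.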

How the data were processed

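The authors deposited raw read counts of 11 libraries in 1 table, with genes named by Entrez IDs. Tools and builds named in the submitters' processing notes are featureCounts, limma and mm10. The aligner, the annotation and the strand setting of the counting are not given in the sources available. Counts of the 14 members whose exons overlap another gene (GENCODE M21) are therefore uncertain. Besides Mars1 these include Farsb, Yars, Nars2, Ears2, Hars and Hars2, which overlap genes on the other strand. Aars overlaps Exosc6 on the same strand, which counting by strand would not separate. Per the labels' protocols, RNA was isolated with PicoPure. A RefSeq table (GRCm38.p6) named 25275 of the 27179 IDs.

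The tests used edgeR 4.0.16 under R 4.3.3 (TMM factors, a minimum count of 10, 15028 genes, quasi-likelihood F test, 1 mean per group over all 11 libraries), with a call at a p below 0.05 after Benjamini-Hochberg adjustment over all genes tested. The SE was obtained from the log2 fold change and F, and is approximate. The median biological coefficient of variation was 0.176. The test was also run on counts simulated from its own fitted spread with 200 changed genes, with the outcome not given here. Such counts cannot show how the test behaves with the library differences of these data. Libraries of a group differed by more than sampling noise.

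The members and gene lists were chosen with earlier results of these data known. Values by library are given for the 5 members called with the largest change in each main comparison, the 3 highest and 3 lowest in vehicle, the 2 with the smallest p in the difference of the ADM2 effect, Eprs, Gars, Kars, Qars, Wars and Yars, and members against most of their compartment. From each gene list up to 4 genes per comparison were taken by smallest p. Atf4, Myc with ADM2, Eef1a1 and the scaffold genes were added by name after their values were seen. Alternatives were DESeq2 1.42.0, limma voom (limma 3.58.1), other scaling factors, other filters, only the groups compared, a replicate block and each library left out.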

Additional observations from a re-analysis of the deposited data

How the results depend on the processing

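Over 4403 member results under the alternatives, 4194 stayed on their side of the threshold with their direction, 162 calls were lost, 47 were gained and 0 called values changed sign (111 uncalled values did). Counts of called genes that moved by more than 1.5 times were as follows. For ADM2 on top of IL-25, mitochondrial genes went from 2 to 1 when only the groups compared were fitted. For IL-25 plus ADM2 against ADM2, mitochondrial genes went from 0 to 1 without the filter, 2 with DESeq2 and 2 with only the groups compared. For the difference of the ADM2 effect, mitochondrial genes went from 0 to 1 (Lars2) without the filter. Over all genes that difference had 5 calls, 47 without the filter, 46 with DESeq2, 3 at a minimum count of 30 and 1 with voom. The cause of these changes was not tested.

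Same-numbered libraries of different groups did not deviate together (correlations of -0.0726 to 0.0685), so the numbers were not taken to pair them. With the replicate block, cytosolic counts were 10 for ADM2 against vehicle, 15 for IL-25 against vehicle and 11 for ADM2 on top of IL-25, and mitochondrial counts 4, 2 and 2. With the block the cytosolic count went from 11 to 7 for IL-25 plus ADM2 against ADM2, and for IL-25 plus ADM2 against vehicle the cytosolic count went from 9 to 5 and the mitochondrial count from 4 to 2. The difference over all genes went from 5 to 2 with the block.

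With 1 library left out at a time, the count of cytosolic genes called was 8 to 13 for ADM2 against vehicle, 14 to 16 for IL-25 against vehicle, 8 to 14 for ADM2 on top of IL-25, 3 to 13 for IL-25 plus ADM2 against ADM2, 4 to 10 for IL-25 plus ADM2 against vehicle and 0 in each case for the difference. Mitochondrial genes called were 3 to 7, 2 to 3, 1 to 3, 0 to 2, 0 to 6 and 0 in the same order. Over all genes these ranges were 1662 to 2555, 2520 to 3427, 1263 to 2261, 739 to 1926, 1644 to 3437 and 0 to 6. Median levels per kilobase used coding length, and exon length moved the vehicle ratio of cytosolic to mitochondrial medians from 7.45 to 12.1. Of the 5 genes called over all genes in the difference 2 were higher and 3 lower, against 3 and 2 with upper-quartile factors and 2 and 2 with median-ratio factors. Upper-quartile factors shifted the median of all genes by 0.07 at most in size (log2). The fewest counts of a mitochondrial gene in a library were 125, and how far depth limits the lowest genes was not tested.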
